A study of Mus musculus with 60 samples.

Results

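Inguinal white adipose tissue of vehicle-treated Glp1rWnt1-/- mice was compared with that of Glp1rfl/fl mice, which carry loxP-flanked alleles of Glp1r, the gene of the receptor for the gut hormone GLP-1. The comparison rests on 10 of the 60 libraries of the series, 5 of Glp1rWnt1-/- fat and 5 of Glp1rfl/fl fat, chosen by their titles. All 10 libraries came from diet-induced obese mice given vehicle, and each title numbers its library as a biological replicate from 1 to 5. Poly(A) RNA was made into stranded libraries and sequenced on a NovaSeq X, and expression is given as FPKM, fragments scaled by transcript length and library size. The same table holds 5 libraries of Glp1rfl/fl mice given mGIPR-Ab/P1, in which a GIP receptor antibody is joined to a peptide, and these entered the fit as another group. The labels name the knockout after Wnt1 and do not describe the driver, the sex or the age of the mice, nor whether tissue was pooled.

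GLP-1 is released from the gut after meals, raises insulin secretion through its receptor on pancreatic beta cells and lowers food intake through receptors in the brain. Wnt1 encodes a secreted signalling protein of the developing midbrain and dorsal neural tube, and mouse drivers built on it act in those parts of the nervous system and in the neural crest, from which sympathetic neurons and Schwann cells arise. Inguinal fat is a subcutaneous depot that stores triglyceride, is innervated by sympathetic nerves, and surrounds a lymph node.

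The targeted gene could not serve as a check of the labels in this tissue. Glp1r was at 0, 0, 0.006, 0 and 0 FPKM in the Glp1rWnt1-/- libraries against 0, 0.031, 0, 0.006 and 0 FPKM in the Glp1rfl/fl libraries, all under 0.1 FPKM. Wnt1 was equally close to the limit of detection, with means of 0.015 ± 0.016 FPKM in Glp1rWnt1-/- fat and 0.024 ± 0.02 FPKM in Glp1rfl/fl fat (SD, n = 5 each). The errors of FPKM levels are SDs over 5 libraries throughout, and those of log2 fold changes are SEs. Gipr, the receptor for the other incretin hormone and the target of the antibody, was expressed at 2.67, 5.18, 4.79, 6.49 and 6.88 FPKM in the Glp1rWnt1-/- libraries against 4.02, 2.16, 2.25, 4.44 and 4.25 FPKM in the Glp1rfl/fl libraries. The 2 groups overlapped in Gipr, and its log2 fold change was 0.48 ± 0.28 (SE; 95% interval -0.13 to 1.08). Sctr, the receptor for the gut hormone secretin, was at 1.63, 1.501, 1.20, 2.19 and 1.54 FPKM in the Glp1rWnt1-/- libraries against 1.14, 0.387, 0.619, 0.860 and 0.408 FPKM in the Glp1rfl/fl libraries. Every Glp1rWnt1-/- library lay above every Glp1rfl/fl library in Sctr, by 0.64 ± 0.17 (SE; 95% interval 0.27 to 1.01) on the scale of log2(FPKM + 1), with an unadjusted limma p of 0.00223 and an adjusted p of 0.983. Vipr2, a receptor for vasoactive intestinal peptide, was at 0.762 ± 0.260 FPKM in Glp1rWnt1-/- and 1.20 ± 0.490 FPKM in Glp1rfl/fl fat, and of the 11 genes listed around the incretin and glucagon receptors 5 were expressed highly enough to be tested. Adipocyte markers were high in all 10 libraries: Adipoq, the gene of the hormone adiponectin, averaged 2148 ± 576 FPKM in Glp1rWnt1-/- fat and 2138 ± 663 FPKM in Glp1rfl/fl fat.

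The libraries differed in what else the piece of tissue contained. The mean of log2(FPKM + 1) over 15 B cell markers was 5.80, 1.01, 5.69, 1.61 and 1.13 in the Glp1rWnt1-/- libraries against 1.06, 6.53, 1.05, 1.03 and 1.17 in the Glp1rfl/fl libraries. Replicates 1 and 3 of Glp1rWnt1-/- fat and replicate 2 of Glp1rfl/fl fat thus stood far above the others, and the same 3 libraries were high in T cell and lymph node stroma genes. Cd79a, a chain of the B cell receptor, was at 144, 0.786, 146, 2.49 and 0.966 FPKM in the Glp1rWnt1-/- libraries against 0.939, 262, 0.517, 0.580 and 1.04 FPKM in the Glp1rfl/fl libraries. The 11 skeletal muscle markers scored 0.78, 4.68, 0.80, 0.74 and 1.103 in the Glp1rWnt1-/- libraries against 0.71, 0.78, 0.60, 5.13 and 1.18 in the Glp1rfl/fl libraries, with replicate 2 of Glp1rWnt1-/- fat and replicate 4 of Glp1rfl/fl fat high. Acta1, the actin of skeletal muscle, was at 8.09, 118, 7.87, 15.8 and 17.3 FPKM in the Glp1rWnt1-/- libraries against 15.96, 4.85, 7.66, 139.8 and 14.8 FPKM in the Glp1rfl/fl libraries. The first principal component of the 10 libraries held 76.2% of the variance and separated the B cell-rich libraries from the rest. Depth, estimated from the smallest FPKM steps, was 32.4 to 41.4 M fragments per Glp1rWnt1-/- library and 32.4 to 37.8 M per Glp1rfl/fl library. The main counts are therefore given for all 10 libraries and again without the 3 B cell-rich ones, which leaves 3 Glp1rWnt1-/- and 4 Glp1rfl/fl libraries. In bulk tissue a larger share of a cell type and more RNA per cell of it cannot be told apart.

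**Figure D1:**
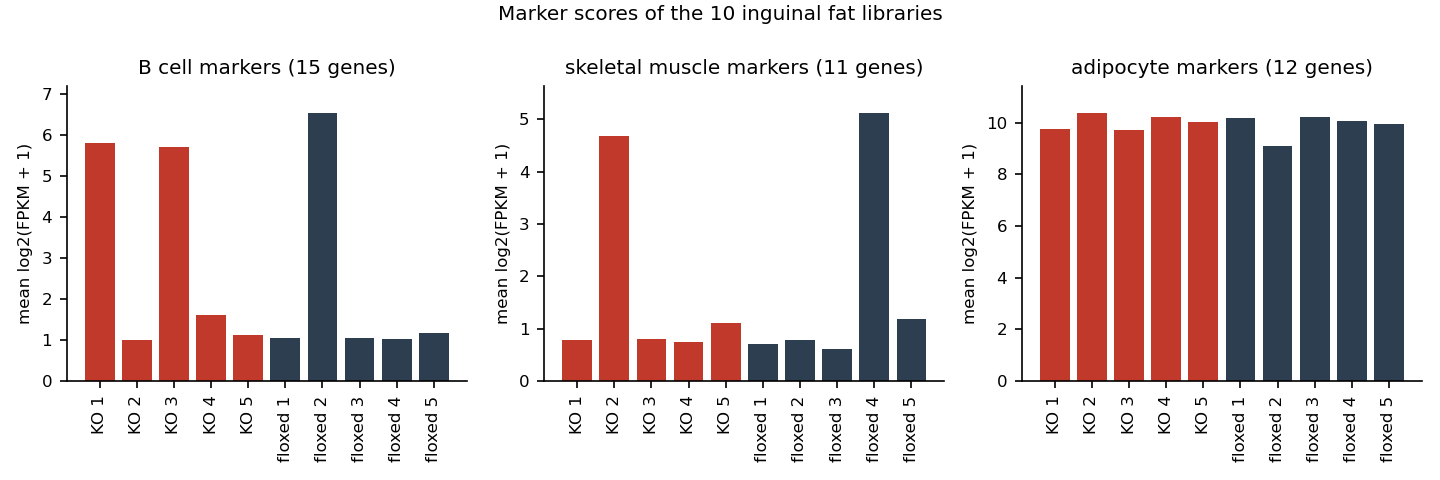
Mean log2(FPKM + 1) of B cell, skeletal muscle and adipocyte markers in each of the 5 Glp1rWnt1-/- (KO) and 5 Glp1rfl/fl (floxed) libraries, 1 bar a library. B cell scores of 5.80, 5.69 and 6.53 stand above scores of 1.01 to 1.61 in the other libraries, muscle scores of 4.68 and 5.13 above 0.60 to 1.18, and the adipocyte score is lowest, at 9.08, in Glp1rfl/fl replicate 2.

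No gene passed the threshold between the genotypes. Of 12686 genes tested, 0 had an adjusted p under 0.05 in limma (0% called), and the smallest adjusted p was 0.931. An unadjusted p under 0.05 was found for 593 genes, 4.67% of those tested, of which 279 were higher (2.2%) and 314 lower (2.48%) in Glp1rWnt1-/- fat. The 2 groups of 5 did not overlap for 134 genes (1.06%), 55 of them higher (0.434%) and 79 lower (0.623%). Most differences were bounded on the scale of log2(FPKM + 1). There the 95% interval reached no further than a 2-fold change in either direction for 11698 genes (92.2%). It reached no further than a 1.5-fold change for 9007 (71.0%). These are folds of FPKM + 1, and for low genes the fold of FPKM itself can lie beyond such a limit. On the same scale differences of 2-fold or more were estimated for 48 genes.

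The counts depended on the B cell-rich libraries. Without them 0 genes were called again (smallest adjusted p 0.105), the groups did not overlap for 2552 genes (20.1%), and 1830 genes (14.4%) had an unadjusted p under 0.05, 896 higher (7.06%) and 934 lower (7.36%). Without the muscle-rich libraries as well, 0 genes were called with 2 Glp1rWnt1-/- and 3 Glp1rfl/fl libraries left, the smallest adjusted p was 0.0633, and 1294 genes had an unadjusted p under 0.05. The groups then did not overlap for 4542 of the 12686 genes. Smaller groups fail to overlap more often by chance, so 2552 and 4542 cannot be set against the 134 with all libraries. Without Glp1rfl/fl replicate 2 alone the number of genes with an unadjusted p under 0.05 was 2928, against 593 with it. When limma was run with array weights, which give libraries that depart from their group less say, 732 genes (5.77%) were called, 302 higher (2.38%) and 430 lower (3.39%). The 3 B cell-rich libraries then had weights of 0.203, 0.265 and 0.086, against 0.764 to 4.08 for the other 7 libraries. All 732 genes had the same sign with equal weights, and 376 of them had an unadjusted p under 0.05 there. Of 117 named genes tested, 43 were called with the weights, the 10 of smallest p among them. Most named genes were chosen by a small p in these same libraries, so that share is no separate check.

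**Figure D2:**
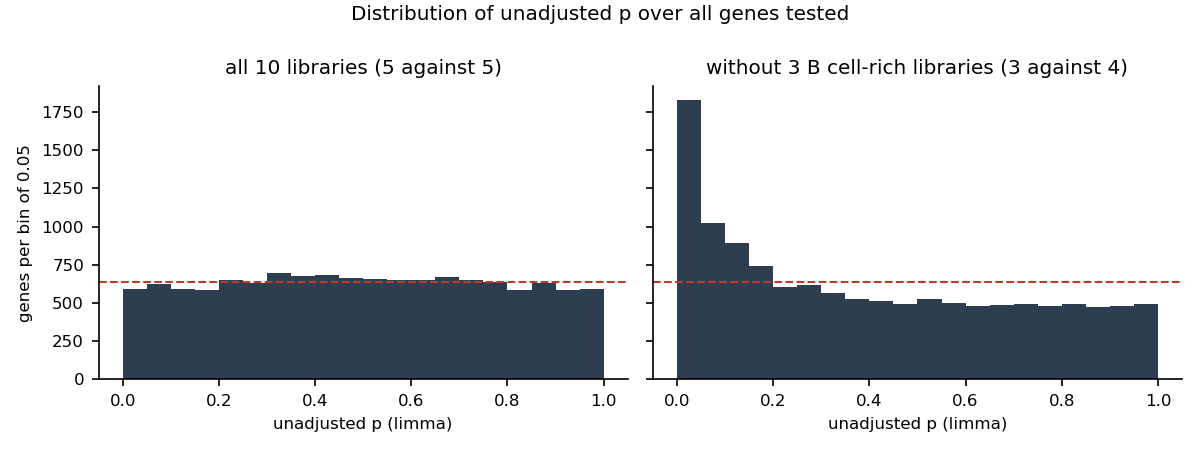
Number of genes in each bin of 0.05 of the unadjusted limma p, over all 12686 genes tested, with all 10 libraries on the left and without the 3 B cell-rich libraries on the right. The dashed line is the height of an even distribution. With all 10 libraries the bars lie near that line, with 593 genes in the lowest bin, while without the 3 libraries the lowest bin holds 1830 genes.

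The 10 named genes of smallest p were Ahsa2, Cxcl10, Pck1, Col12a1, Hsd17b7, Rsc1a1, Ccser2, Hipk2, Cbfa2t2 and Slc4a7, each with an adjusted p of 0.931 or above. Pck1, cytosolic phosphoenolpyruvate carboxykinase, supplies the glycerol backbone of triglyceride in fat. It was at 444, 523, 398, 641 and 392.5 FPKM in the Glp1rWnt1-/- libraries against 332, 176, 264, 239.9 and 216 FPKM in the Glp1rfl/fl libraries. All 5 Glp1rWnt1-/- libraries lay above all 5 Glp1rfl/fl libraries, the highest being Glp1rWnt1-/- replicate 4, and the log2 fold change was 0.97 ± 0.21 (SE; 95% interval 0.51 to 1.43), with an unadjusted p of 0.000463. Without the B cell-rich libraries the difference in Pck1 was 0.97.

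Cxcl10, a chemokine induced by interferon, was at 4.78, 2.70, 5.89, 8.84 and 4.69 FPKM in the Glp1rWnt1-/- libraries against 1.61, 3.01, 1.53, 1.87 and 2.08 FPKM in the Glp1rfl/fl libraries. The groups overlapped only through Glp1rWnt1-/- replicate 2 and Glp1rfl/fl replicate 2, and the log2 fold change was 1.03 ± 0.21 (SE; 95% interval 0.58 to 1.48). Its unadjusted p was 0.00022, and without the B cell-rich libraries the log2 fold change was 1.098. Ahsa2, related to an activator of the chaperone Hsp90, was at 14.1, 15.6, 15.2, 16.04 and 15.5 FPKM in the Glp1rWnt1-/- libraries against 12.6, 11.5, 11.5, 12.7 and 11.8 FPKM in the Glp1rfl/fl libraries. That difference was small, 0.32 ± 0.06 on the log2 scale, with a spread narrower still, so that the groups did not overlap (unadjusted p = 0.000173). Cbfa2t2, a transcriptional corepressor, was at 4.77 ± 0.632 FPKM in Glp1rWnt1-/- fat and 3.23 ± 0.673 FPKM in Glp1rfl/fl fat (log2 fold change 0.45 ± 0.11).

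The other 6 of these genes had lower values in Glp1rWnt1-/- fat. Hipk2, a nuclear protein kinase, was at 13.1, 4.67, 12.02, 3.60 and 5.47 FPKM in the Glp1rWnt1-/- libraries against 22.7, 22.3, 32.9, 25.3 and 32.9 FPKM in the Glp1rfl/fl libraries. No Glp1rWnt1-/- library reached the lowest Glp1rfl/fl one, and the log2 fold change was -1.82 ± 0.45 (SE; 95% interval -2.77 to -0.86). The 2 highest Glp1rWnt1-/- values of Hipk2 were those of the B cell-rich libraries, and without these libraries the difference was -2.40. Col12a1, a collagen that binds to the surface of collagen fibrils, was at 2.09, 2.05, 1.68, 1.42 and 2.09 FPKM in the Glp1rWnt1-/- libraries against 2.78, 3.31, 3.46, 3.44 and 4.62 FPKM in the Glp1rfl/fl libraries, again without overlap (log2 fold change -0.65 ± 0.15; -0.67 without the B cell-rich libraries). Hsd17b7, an enzyme of cholesterol synthesis, was at 3.33, 3.11, 3.54, 2.41 and 3.42 FPKM in the Glp1rWnt1-/- libraries against 4.81, 3.88, 5.14, 5.45 and 4.86 FPKM in the Glp1rfl/fl libraries, with a log2 fold change of -0.49 ± 0.11. Slc4a7, a sodium bicarbonate cotransporter, was at 6.60 ± 1.45 FPKM in Glp1rWnt1-/- fat and 11.3 ± 1.68 FPKM in Glp1rfl/fl fat, and Ccser2 at 22.4 ± 1.29 FPKM in Glp1rWnt1-/- fat and 29.6 ± 3.47 FPKM in Glp1rfl/fl fat. Rsc1a1 was listed at 0 to 6.24e-12 FPKM in 4 Glp1rWnt1-/- libraries and at 0.937 FPKM in the other one, against 1.26 to 2.08 FPKM in Glp1rfl/fl fat. Since FPKM files can hold a failed estimate as 0 or close to it, no fold is given for Rsc1a1.

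**Figure D3:**
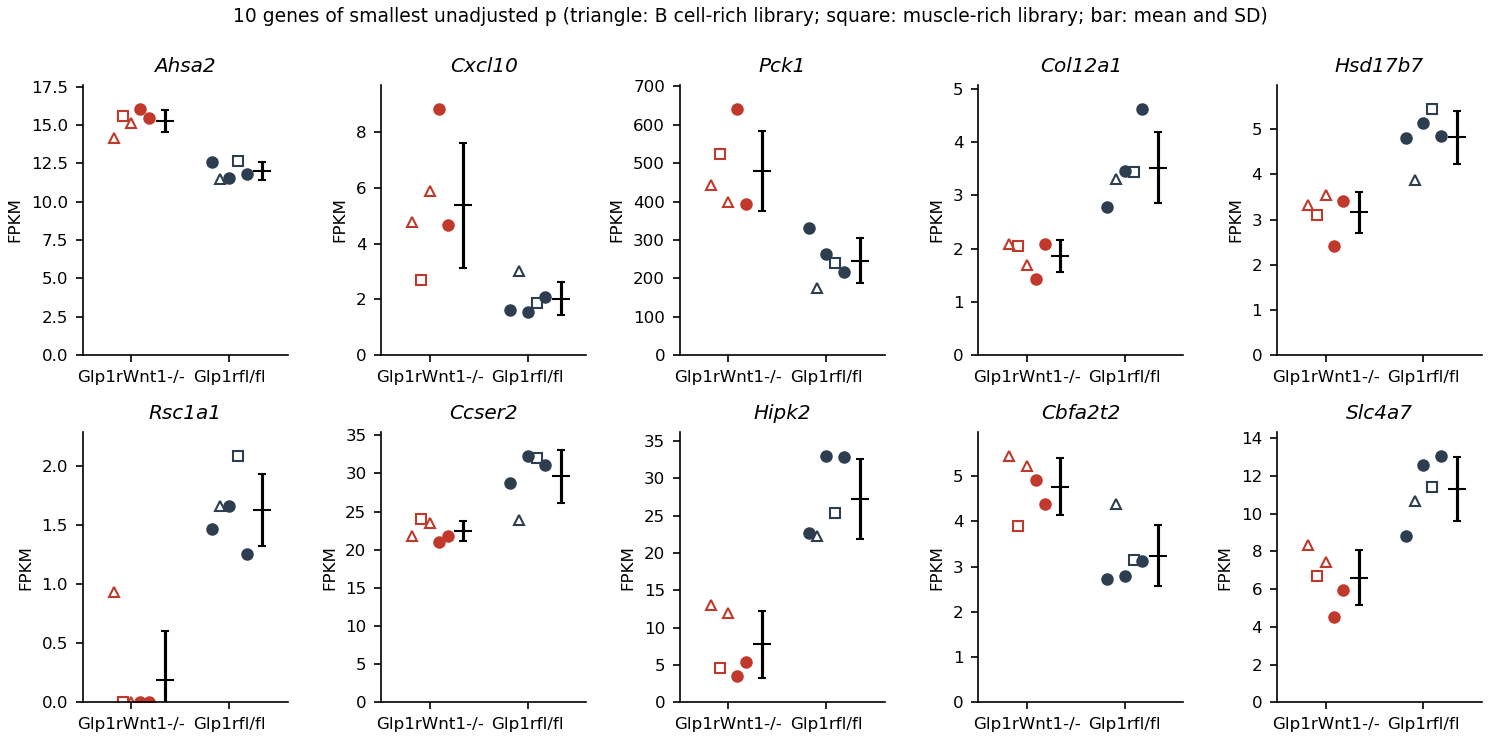
FPKM of the 10 named genes of smallest unadjusted p in the 5 Glp1rWnt1-/- libraries (red) and the 5 Glp1rfl/fl libraries (dark), each on its own linear axis. Triangles are B cell-rich and squares muscle-rich libraries, and bars give the mean and SD. The groups do not overlap in 7 of the 10 panels, beside 1.06% of all genes tested. The panels were chosen by p in these same libraries, so their separation is no separate check. Pck1 is among the 7, with 392.5 to 641 FPKM in Glp1rWnt1-/- against 176 to 332 FPKM in Glp1rfl/fl fat. Rsc1a1 is also among the 7, and its lowest values may be failed estimates.

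The genes of fat metabolism were described by lists. Of all 49 lists 25 had a median of the other sign in at least 1 of the fits that left out a single library, 11 of them without Glp1rWnt1-/- replicate 1 and 10 without Glp1rfl/fl replicate 2. Of 20 genes of glyceroneogenesis and glucose use, 2 had an unadjusted p under 0.05, both higher in Glp1rWnt1-/- fat, and the median log2 fold change was 0.10, beside a median of 0.04 over all genes tested. Without Glp1rfl/fl replicate 2 it was 0.02. The 2 genes were Pck1 and Pdk4, a kinase that slows the entry of pyruvate into the citric acid cycle. Pdk4 was at 64.8, 67.8, 56.99, 69.2 and 90.3 FPKM in the Glp1rWnt1-/- libraries against 41.6, 30.1, 37.2, 74.9 and 43.2 FPKM in the Glp1rfl/fl libraries. Glp1rfl/fl replicate 4, a muscle-rich library, was the one Glp1rfl/fl library that reached the Glp1rWnt1-/- range, and the log2 fold change was 0.66 ± 0.19 (SE; 95% interval 0.26 to 1.06).

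Cholesterol genes had, of all lists, the most members at an unadjusted p under 0.05. Of 24 genes of cholesterol synthesis and uptake, all tested, 6 had such a p and were lower in Glp1rWnt1-/- fat, none was higher at that level, and 22 had a negative log2 fold change, whereas 38.4% of all genes did. Their median was -0.22 (range -0.49 to 0.22) and -0.20 without the B cell-rich libraries. Sqle, the squalene epoxidase of that pathway, was at 5.75, 6.23, 5.24, 5.41 and 6.52 FPKM in the Glp1rWnt1-/- libraries against 7.19, 6.08, 8.46, 7.09 and 7.98 FPKM in the Glp1rfl/fl libraries, a log2 fold change of -0.29 ± 0.09 (SE; 95% interval -0.49 to -0.09). With array weights 4 of the 24 genes were called, all lower, where 3.39% of all genes were called lower. Leaving out 1 library gave medians of -0.32 without Glp1rfl/fl replicate 2 to -0.15 without Glp1rfl/fl replicate 3.

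Of 18 genes of fatty acid synthesis, 1 had an unadjusted p under 0.05. This was Scd2, a desaturase that makes monounsaturated fatty acids, at 99.7 ± 17.7 FPKM in Glp1rWnt1-/- and 141 ± 21.9 FPKM in Glp1rfl/fl fat (log2 fold change -0.50 ± 0.21). Fasn, fatty acid synthase, was at 333 ± 78.6 FPKM in Glp1rWnt1-/- and 375 ± 79.02 FPKM in Glp1rfl/fl fat, a difference of -0.17 ± 0.21 (SE; 95% interval -0.63 to 0.28), and Elovl5, an elongase, at 37.1 ± 2.35 FPKM in Glp1rWnt1-/- and 32.5 ± 5.03 FPKM in Glp1rfl/fl fat. The median of the list was -0.10. In triglyceride synthesis and droplet genes, 19 tested, the members of smallest p went opposite ways: Mogat1, a monoacylglycerol acyltransferase, was at 14.1 ± 3.76 FPKM in Glp1rWnt1-/- and 9.68 ± 2.38 FPKM in Glp1rfl/fl fat and Gpam, which acylates glycerol 3-phosphate, at 18.04 ± 1.24 FPKM in Glp1rWnt1-/- and 22.4 ± 3.81 FPKM in Glp1rfl/fl fat.

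Among 19 adrenergic and lipolysis genes 1 was higher and 1 lower at an unadjusted p under 0.05. Adrb3, the beta-3 adrenergic receptor through which sympathetic nerves stimulate lipolysis, was at 33.7, 117, 40.1, 132 and 95.6 FPKM in the Glp1rWnt1-/- libraries against 39.3, 16.9, 37.5, 54.9 and 36.5 FPKM in the Glp1rfl/fl libraries. The 2 lowest Glp1rWnt1-/- values were those of the B cell-rich replicates 1 and 3, within the Glp1rfl/fl range. The log2 fold change of Adrb3 was 1.04 ± 0.38 (SE; 95% interval 0.23 to 1.85) with all libraries. Without the B cell-rich ones it was 1.43 (unadjusted p = 1.43e-05; adjusted p = 0.105), and the groups did not overlap, as for 20.1% of all genes. Npr3, the clearance receptor of natriuretic peptides, was at 196 ± 7.04 FPKM in Glp1rWnt1-/- and 269 ± 65.6 FPKM in Glp1rfl/fl fat, and its log2 fold change was -0.42 ± 0.19, or -0.59 without the B cell-rich libraries.

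Of 12 tested genes of thermogenic adipocytes 1 had an unadjusted p under 0.05. It was Gk, glycerol kinase, at 4.003, 4.16, 4.38, 4.26 and 5.41 FPKM in the Glp1rWnt1-/- libraries against 5.92, 4.49, 7.36, 7.19 and 8.48 FPKM in the Glp1rfl/fl libraries, lower in 4 of 5 Glp1rWnt1-/- libraries than in any Glp1rfl/fl library. Its log2 fold change was -0.48 ± 0.14 (SE; 95% interval -0.77 to -0.19). Elovl3, an elongase of brown fat, was at 1.47 ± 0.931 FPKM in Glp1rWnt1-/- and 2.54 ± 1.14 FPKM in Glp1rfl/fl fat. Ucp1, the uncoupling protein that defines thermogenic fat, was under 1 FPKM in all 10 libraries, with means of 0.421 ± 0.351 FPKM in Glp1rWnt1-/- fat and 0.243 ± 0.138 FPKM in Glp1rfl/fl fat, and was not tested.

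Oxidation genes differed by little. The medians were 0.07 over 22 genes of fatty acid oxidation, 0.13 over 20 of branched-chain amino acid breakdown, 0.05 over 17 of the citric acid cycle, 0.02 over 28 nuclear-encoded respiratory chain subunits and 0.03 over 13 mitochondrial transcripts. Positive log2 fold changes were found for 18 of 22 genes of fatty acid oxidation and 18 of 20 of branched-chain amino acid breakdown, beside 61.6% of all genes. Without Glp1rfl/fl replicate 2 alone both medians were negative, at -0.10 and -0.03. The members of smallest p included Ivd, isovaleryl-CoA dehydrogenase, at 58.2 ± 8.55 FPKM in Glp1rWnt1-/- and 47.96 ± 9.13 FPKM in Glp1rfl/fl fat, and Suclg2, a subunit of succinate-CoA ligase, at 21.997 ± 2.11 FPKM in Glp1rWnt1-/- and 19.1 ± 0.709 FPKM in Glp1rfl/fl fat. Cpt1a, which admits fatty acids to mitochondria, was at 34.5 ± 2.17 FPKM in Glp1rWnt1-/- and 38.1 ± 2.03 FPKM in Glp1rfl/fl fat, and Ppara, a receptor that activates fatty acid oxidation, at 0.945 ± 0.306 FPKM in Glp1rWnt1-/- and 1.21 ± 0.200 FPKM in Glp1rfl/fl fat. Ogdh, Uqcrc2, Ndufs7, mt-Atp6 and mt-Atp8 each had an unadjusted p above 0.05, with log2 fold changes of 0.16, 0.10, 0.09, 0.35 and -0.31.

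Among 18 adipokine genes 2 had an unadjusted p under 0.05, both lower. Angptl8, a secreted inhibitor of lipoprotein lipase that is made after feeding, was at 7.07, 20.9, 14.2, 20.2 and 15.4 FPKM in the Glp1rWnt1-/- libraries against 19.6, 18.1, 40.7, 26.7 and 37.9 FPKM in the Glp1rfl/fl libraries. The groups overlapped through Glp1rWnt1-/- replicates 2 and 4 and Glp1rfl/fl replicates 1 and 2, and the log2 fold change of Angptl8 was -0.85 ± 0.31 (SE; 95% interval -1.52 to -0.18). Lep, the gene of the satiety hormone leptin, was at 882, 1153, 937, 948 and 1154 FPKM in the Glp1rWnt1-/- libraries against 1466, 829.7, 1303, 1434 and 1724 FPKM in the Glp1rfl/fl libraries. All Glp1rfl/fl libraries but the B cell-rich replicate 2 lay above all Glp1rWnt1-/- libraries in Lep, and its log2 fold change was -0.38 ± 0.22 (SE; 95% interval -0.85 to 0.08). Adipoq differed by 0.04 ± 0.27, a sign that turned under median-of-ratios scaling, and Cfd, the protease adipsin, was at 1055 ± 347 FPKM in Glp1rWnt1-/- and 668 ± 287 FPKM in Glp1rfl/fl fat. Lipe, the hormone-sensitive lipase, was at 654 ± 138 FPKM in Glp1rWnt1-/- and 573 ± 145 FPKM in Glp1rfl/fl fat, and the median of 12 adipocyte markers was 0.09.

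Gpx3, a secreted glutathione peroxidase, was at 92.1, 140.4, 91.99, 176 and 88.03 FPKM in the Glp1rWnt1-/- libraries against 88.98, 62.2, 94.3, 76.6 and 65.9 FPKM in the Glp1rfl/fl libraries. Glp1rWnt1-/- replicates 2 and 4 were above all Glp1rfl/fl libraries and the other 3 were inside their range, with a log2 fold change of 0.56 ± 0.21 (SE; 95% interval 0.11 to 0.999) and an unadjusted p of 0.0177. Sod2, the mitochondrial superoxide dismutase, was at 31.04 ± 4.05 FPKM in Glp1rWnt1-/- and 35.5 ± 7.72 FPKM in Glp1rfl/fl fat, and 1 of 20 antioxidant genes had an unadjusted p under 0.05. Tph2, the tryptophan hydroxylase known from serotonin neurons of the brain, was at 10.1, 35.2, 16.9, 24.7 and 35.7 FPKM in the Glp1rWnt1-/- libraries against 36.5, 19.3, 57.8, 40.3 and 61.9 FPKM in the Glp1rfl/fl libraries. The ranges overlapped and the log2 fold change of Tph2 was -0.82 ± 0.38 (SE; 95% interval -1.62 to -0.02), with an unadjusted p of 0.0455. Maoa, which degrades serotonin, was at 9.78 ± 1.53 FPKM in Glp1rWnt1-/- and 12.2 ± 4.05 FPKM in Glp1rfl/fl fat.

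With equal weights limma called none of the vascular markers, and with array weights it called Eng and Notch3, both higher. All 12 endothelial markers had a positive log2 fold change, with a median of 0.32 and 0.35 without the B cell-rich libraries, and 1 had an unadjusted p under 0.05. Without Glp1rfl/fl replicate 3 alone the median was 0.18. Their summed level was 704 to 1079.5 FPKM in Glp1rWnt1-/- fat and 584 to 977 FPKM in Glp1rfl/fl fat. Eng, endoglin, a receptor of the TGF-beta family, was at 40.8, 55.02, 52.6, 72.8 and 61.8 FPKM in the Glp1rWnt1-/- libraries against 45.02, 39.2, 24.3, 44.1 and 42.04 FPKM in the Glp1rfl/fl libraries, a log2 fold change of 0.54 ± 0.21 (SE; 95% interval 0.08 to 0.99). Glp1rfl/fl replicate 3 was far below its group in Eng. Cdh5, the cadherin of endothelial junctions, was at 106 ± 18.9 FPKM in Glp1rWnt1-/- and 78.8 ± 23.9 FPKM in Glp1rfl/fl fat. Of 10 mural markers, which are genes of pericytes and smooth muscle, 8 were positive with a median of 0.15, which was 0.01 without Glp1rfl/fl replicate 3. Notch3 was at 14.4 ± 3.12 FPKM in Glp1rWnt1-/- and 9.48 ± 2.40 FPKM in Glp1rfl/fl fat, Pdgfrb at 22.03 ± 3.44 FPKM in Glp1rWnt1-/- and 17.5 ± 2.81 FPKM in Glp1rfl/fl fat and Mylk, the myosin light chain kinase, at 30.4 ± 3.74 FPKM in Glp1rWnt1-/- and 35.6 ± 8.34 FPKM in Glp1rfl/fl fat. In lymphatic endothelium 3 genes were tested, among them Flt4 at 3.90 ± 0.503 FPKM in Glp1rWnt1-/- and 2.998 ± 1.45 FPKM in Glp1rfl/fl fat and Pdpn at 2.69 ± 0.359 FPKM in Glp1rWnt1-/- and 3.41 ± 0.873 FPKM in Glp1rfl/fl fat.

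Interferon-response genes all had positive log2 fold changes. The median over the 18 genes was 0.21 (range 0.11 to 1.03), against 0.04 over all genes, and 2 had an unadjusted p under 0.05, namely Cxcl10 and Gbp2. Gbp2, a guanylate-binding protein of cell-intrinsic immunity, was at 30.01, 36.5, 33.5, 66.1 and 48.1 FPKM in the Glp1rWnt1-/- libraries against 33.01, 26.3, 24.9, 27.8 and 27.6 FPKM in the Glp1rfl/fl libraries, with replicates 4 and 5 of Glp1rWnt1-/- fat highest and a log2 fold change of 0.55 ± 0.18 (SE; 95% interval 0.17 to 0.93). Without the B cell-rich libraries the median was 0.32 and 6 of the 18 genes had an unadjusted p under 0.05, all higher, where 7.06% of all genes were. Glp1rWnt1-/- replicate 4 kept a B cell score of 1.61 there, the highest of the remaining libraries, and was highest in Cxcl10 and Gbp2. With the other 9 libraries the median of the 18 genes was 0.13, with Cxcl10 at 0.85 and Gbp2 at 0.38. Leaving out Glp1rfl/fl replicate 3 gave the lowest median, 0.10.

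The lists of lymphoid cells were high in the B cell-rich libraries. Medians were 1.16 for 7 T cell genes, 0.94 for 5 B cell genes, 1.12 for 4 lymph node stroma genes and 0.48 for 9 MHC class II genes, with no member at an unadjusted p under 0.05. Summed over the 15 B cell markers the levels were 435 to 1788 FPKM in Glp1rWnt1-/- fat and 536 to 3003 FPKM in Glp1rfl/fl fat. No marker was at 0 in all 10 libraries. The mean of log2(FPKM + 1) over the same markers was only 1.01 to 1.61 outside the B cell-rich libraries. A few members thus made up most of the sum there, and the sums do not measure B cell content. Without the 3 libraries the medians of these lists were 0.54, 0.10, 0.23 and 0.39. In that subset 4 of the 7 T cell genes had an unadjusted limma p under 0.05, all higher, where 7.06% of all genes were. No member of the B cell, lymph node stroma or MHC class II lists had such a p. Of the libraries left, Glp1rWnt1-/- replicate 4 had the highest T cell score, at 1.26. Cd3e, a chain of the T cell receptor complex, shows what was left: 27.03, 0.556, 25.1, 2.16 and 0.840 FPKM in the Glp1rWnt1-/- libraries against 0.305, 39.8, 0.297, 0.208 and 0.194 FPKM in the Glp1rfl/fl libraries. Among the libraries without a high B cell score, the 3 Glp1rWnt1-/- values of 0.556, 2.16 and 0.840 FPKM lay above the 4 Glp1rfl/fl values of 0.194 to 0.305 FPKM, and the log2 fold change was 0.74 (unadjusted p = 0.00959; adjusted p = 0.233). In that subset the groups did not overlap for 20.1% of all genes. Cd3g, Cd79b, Cxcl13, Ltb, Ciita, H2-Eb1, Jchain, Prdm1, Klrk1 and Nkg7, the other members of smallest p in the lymphoid lists, had unadjusted p values of 0.188 to 0.413 with all libraries.

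Macrophage genes had mostly negative log2 fold changes. Of 14 resident macrophage genes 13 were negative, with a median of -0.14, and 1 had an unadjusted p under 0.05. F13a1, the clotting factor subunit made by tissue macrophages, was at 14.6 ± 4.01 FPKM in Glp1rWnt1-/- and 20.2 ± 3.84 FPKM in Glp1rfl/fl fat, and Cd163, the scavenger receptor for haemoglobin, at 7.09, 6.60, 8.49, 6.93 and 7.84 FPKM in the Glp1rWnt1-/- libraries against 10.9, 9.75, 9.89, 8.39 and 9.07 FPKM in the Glp1rfl/fl libraries. Of 13 genes of lipid-associated macrophages, the cells that gather around dying adipocytes in obesity, 12 were negative, with a median of -0.20. Trem2, the lipid receptor of these cells, ranged widely, at 4.39, 11.3, 7.12, 24.6 and 20.6 FPKM in the Glp1rWnt1-/- libraries against 7.89, 5.001, 20.5, 28.5 and 42.6 FPKM in the Glp1rfl/fl libraries. Its interval of -2.10 to 1.17 is too wide to limit a difference of 2-fold, and Lgals3 was at 159 ± 49.003 FPKM in Glp1rWnt1-/- and 209.97 ± 80.7 FPKM in Glp1rfl/fl fat. With single libraries left out the medians ranged from -0.28 without Glp1rfl/fl replicate 1 to -0.01 without Glp1rfl/fl replicate 5 for resident macrophages, and from -0.41 without Glp1rfl/fl replicate 2 to -0.03 without replicate 5 for the other list. Without both the B cell-rich and the muscle-rich libraries the medians of the macrophage lists were 0.16 and 0.19, the other way round. S100a8, an alarmin of neutrophils, was at 10.9, 10.1, 7.32, 6.10 and 17.7 FPKM in the Glp1rWnt1-/- libraries against 12.7, 21.5, 23.4, 18.4 and 18.3 FPKM in the Glp1rfl/fl libraries, a log2 fold change of -0.85 ± 0.24 (SE; 95% interval -1.36 to -0.35). Mmp9, also of neutrophils, was at 1.34 ± 0.280 FPKM in Glp1rWnt1-/- and 1.08 ± 0.748 FPKM in Glp1rfl/fl fat, and the mast cell gene Hdc at 1.17 ± 0.288 FPKM in Glp1rWnt1-/- and 1.01 ± 0.394 FPKM in Glp1rfl/fl fat. Kit, also of mast cells, was at 5.67 ± 1.39 FPKM in Glp1rWnt1-/- and 4.65 ± 1.65 FPKM in Glp1rfl/fl fat.

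Of the remaining signalling and chemokine genes, Cx3cl1, a chemokine displayed on endothelium, was at 2.56 ± 0.382 FPKM in Glp1rWnt1-/- and 1.75 ± 0.916 FPKM in Glp1rfl/fl fat (log2 fold change 0.43 ± 0.18). Cxcl12, the chemokine of stromal cells, was at 83.8 ± 38.7 FPKM in Glp1rWnt1-/- and 64.01 ± 59.98 FPKM in Glp1rfl/fl fat. Cish, a feedback inhibitor of cytokine and growth hormone signals, was at 4.39, 2.07, 2.73, 11.7 and 1.22 FPKM in the Glp1rWnt1-/- libraries against 1.20, 3.11, 0.661, 0.961 and 0.687 FPKM in the Glp1rfl/fl libraries. Glp1rWnt1-/- replicate 4 alone carried much of its mean, and the log2 fold change was 1.02 ± 0.46 (SE; 95% interval 0.03 to 2.02). Socs2, of the same family, was at 5.78 ± 2.76 FPKM in Glp1rWnt1-/- and 4.44 ± 4.01 FPKM in Glp1rfl/fl fat.

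Schwann cells and sympathetic fibres come from the lineage in which Wnt1 drivers act. None of the 13 Schwann cell and 2 nerve fibre genes that could be tested had an unadjusted p under 0.05. Of 21 Schwann cell genes 13 were tested, with 7 positive and 6 negative log2 fold changes, a median of 0.05 and -0.05 without the B cell-rich libraries, and no member at an unadjusted p under 0.05. Summed over the list the levels were 119 to 217 FPKM in Glp1rWnt1-/- fat and 126 to 264 FPKM in Glp1rfl/fl fat. Pmp22, a protein of peripheral myelin that other cells make as well, was at 80.3 ± 14.8 FPKM in Glp1rWnt1-/- and 94.9 ± 22.6 FPKM in Glp1rfl/fl fat, and Pllp, plasmolipin, at 2.63 ± 0.754 FPKM in Glp1rWnt1-/- and 2.20 ± 0.709 FPKM in Glp1rfl/fl fat. Only 2 of 16 nerve fibre genes could be tested, too few to describe nerve fibres. Uchl1 was at 3.71 ± 0.489 FPKM in Glp1rWnt1-/- and 3.51 ± 0.800 FPKM in Glp1rfl/fl fat. Stmn2 was at 3.93 ± 2.07 FPKM in Glp1rWnt1-/- and 3.24 ± 3.40 FPKM in Glp1rfl/fl fat. In the B cell-rich Glp1rfl/fl replicate 2 Stmn2 was at 9.29 FPKM, against 1.20 to 2.05 FPKM in the rest of its group. Th and Dbh, which make noradrenaline, were under 0.1 FPKM in every library.

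Among 12 neurotrophic and guidance factors, Sema3c, a secreted semaphorin, was at 18.3, 17.6, 13.7, 12.4 and 17.2 FPKM in the Glp1rWnt1-/- libraries against 24.7, 15.3, 28.2, 22.9 and 23.2 FPKM in the Glp1rfl/fl libraries, lower in all Glp1rWnt1-/- libraries than in all Glp1rfl/fl libraries except the B cell-rich replicate 2. Its log2 fold change was -0.49 ± 0.18 (SE; 95% interval -0.87 to -0.12). Bdnf, the brain-derived neurotrophic factor, was low, at 0.680 ± 0.116 FPKM in Glp1rWnt1-/- and 1.06 ± 0.383 FPKM in Glp1rfl/fl fat. Among 13 Wnt pathway genes the related coreceptors Lrp5 and Lrp6 went opposite ways. Lrp5 was at 22.1 ± 2.62 FPKM in Glp1rWnt1-/- and 17.3 ± 3.82 FPKM in Glp1rfl/fl fat and Lrp6 at 14.04, 13.9, 15.04, 13.5 and 14.4 FPKM in the Glp1rWnt1-/- libraries against 15.3, 15.1, 18.4, 17.2 and 19.2 FPKM in the Glp1rfl/fl libraries, where the groups did not overlap, and their log2 fold changes were 0.35 ± 0.15 and -0.24 ± 0.08.

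Matrix genes leaned to lower values. Of 28 collagen and matrix genes 21 were negative, with a median of -0.07 (-0.16 without Glp1rWnt1-/- replicate 5 and -0.03 without Glp1rWnt1-/- replicate 3), and none had an unadjusted p under 0.05. Fbn1, the fibrillin of elastic microfibrils, did not overlap, at 8.20, 7.10, 9.59, 7.59 and 9.77 FPKM in the Glp1rWnt1-/- libraries against 10.5, 16.5, 12.04, 10.5 and 13.5 FPKM in the Glp1rfl/fl libraries, but its interval was -1.18 to 0.15. Lox, which cross-links collagen, was at 48.4 ± 6.04 FPKM in Glp1rWnt1-/- and 62.1 ± 13.9 FPKM in Glp1rfl/fl fat. Ly6a, a marker of adipocyte progenitors, was at 139 ± 29.3 FPKM in Glp1rWnt1-/- and 116 ± 11.2 FPKM in Glp1rfl/fl fat.

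Of 18 circadian clock genes 2 had an unadjusted p under 0.05, and the list was balanced, with 9 positive and 9 negative log2 fold changes. Clock, a subunit of the activator of the clock, was at 7.69 ± 1.15 FPKM in Glp1rWnt1-/- and 10.5 ± 1.52 FPKM in Glp1rfl/fl fat. Rora, a nuclear receptor that drives Bmal1, was at 4.37, 4.10, 4.37, 3.39 and 3.89 FPKM in the Glp1rWnt1-/- libraries against 5.48, 4.995, 8.65, 5.81 and 5.91 FPKM in the Glp1rfl/fl libraries, without overlap between the groups, a log2 fold change of -0.50 ± 0.14 (SE; 95% interval -0.80 to -0.19). Xbp1, the transcription factor of the unfolded protein response, was at 66.1, 72.1, 61.2, 95.3 and 68.6 FPKM in the Glp1rWnt1-/- libraries against 57.9, 62.2, 61.1, 55.99 and 59.8 FPKM in the Glp1rfl/fl libraries, a log2 fold change of 0.27 ± 0.10 (SE; 95% interval 0.06 to 0.49). Glp1rWnt1-/- replicate 4 was highest and the groups overlapped. Pdia4, a chaperone of the endoplasmic reticulum, was at 41.7 ± 2.91 FPKM in Glp1rWnt1-/- and 35.1 ± 9.23 FPKM in Glp1rfl/fl fat. Of 12 heat shock chaperones 11 were positive with a median of 0.09, or 0.01 without Glp1rfl/fl replicate 2, with Hsp90ab1 at 323 ± 17.5 FPKM in Glp1rWnt1-/- and 279.8 ± 40.99 FPKM in Glp1rfl/fl fat. Hspa8 was at 609 ± 65.3 FPKM in Glp1rWnt1-/- and 529.6 ± 51.3 FPKM in Glp1rfl/fl fat.

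Of the lists of broader cell functions and minor cell types that follow, ribosome biogenesis had 2 members at an unadjusted p under 0.05, both lower, and the others had 0. Glucocorticoid-response genes had a median of -0.08 over 13 genes and -0.23 without the B cell-rich libraries, with Mt2, a metallothionein, at 44.8 ± 27.5 FPKM in Glp1rWnt1-/- and 61.3 ± 32.2 FPKM in Glp1rfl/fl fat. Ribosome biogenesis genes had a median of 0.02 over 19, with Nhp2 at 19.4 ± 1.91 FPKM in Glp1rWnt1-/- and 22.8 ± 1.72 FPKM in Glp1rfl/fl fat and Wdr12 at 5.11 ± 0.523 FPKM in Glp1rWnt1-/- and 5.86 ± 0.434 FPKM in Glp1rfl/fl fat. Cell cycle genes had a median of 0.06 over 17, with Ccne2 at 1.87 ± 0.245 FPKM in Glp1rWnt1-/- and 2.09 ± 0.214 FPKM in Glp1rfl/fl fat and Tyms at 2.35 ± 0.243 FPKM in Glp1rWnt1-/- and 2.13 ± 0.437 FPKM in Glp1rfl/fl fat. Immediate early genes had a median of 0.10 over 13, with Btg2 at 32.9 ± 8.61 FPKM in Glp1rWnt1-/- and 27.8 ± 13.4 FPKM in Glp1rfl/fl fat and Dusp1 at 22.6 ± 2.36 FPKM in Glp1rWnt1-/- and 19.02 ± 4.08 FPKM in Glp1rfl/fl fat. Adipogenic transcription factors had a median of 0.03 over 16, with Cebpb at 16.6 ± 3.70 FPKM in Glp1rWnt1-/- and 20.3 ± 4.89 FPKM in Glp1rfl/fl fat and Ppargc1b, a coactivator, at 1.04 ± 0.268 FPKM in Glp1rWnt1-/- and 1.32 ± 0.308 FPKM in Glp1rfl/fl fat. The 5 erythrocyte genes had a median of 0.34, or 0.19 without Glp1rWnt1-/- replicate 4, with Alas2 at 7.41 ± 2.19 FPKM in Glp1rWnt1-/- and 5.30 ± 1.61 FPKM in Glp1rfl/fl fat and Hbb-bs at 857 ± 240.5 FPKM in Glp1rWnt1-/- and 668 ± 99.4 FPKM in Glp1rfl/fl fat. Skeletal muscle genes had a median of -0.04 over 5, with Pvalb at 9.35 ± 14.5 FPKM in Glp1rWnt1-/- and 12.99 ± 20.2 FPKM in Glp1rfl/fl fat, and the keratinocyte gene Krt10 was at 1.44 ± 0.198 FPKM in Glp1rWnt1-/- and 1.54 ± 0.256 FPKM in Glp1rfl/fl fat. Dmkn, also of keratinocytes, was at 1.02 ± 0.128 FPKM in Glp1rWnt1-/- and 2.37 ± 1.49 FPKM in Glp1rfl/fl fat. Sult1a1, a sulfotransferase that acts on phenols, was at 157 ± 15.4 FPKM in Glp1rWnt1-/- and 129.9 ± 36.97 FPKM in Glp1rfl/fl fat. None of the genes of mesothelium or of mammary and other epithelium passed the filter on low values.

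**Figure D4:**
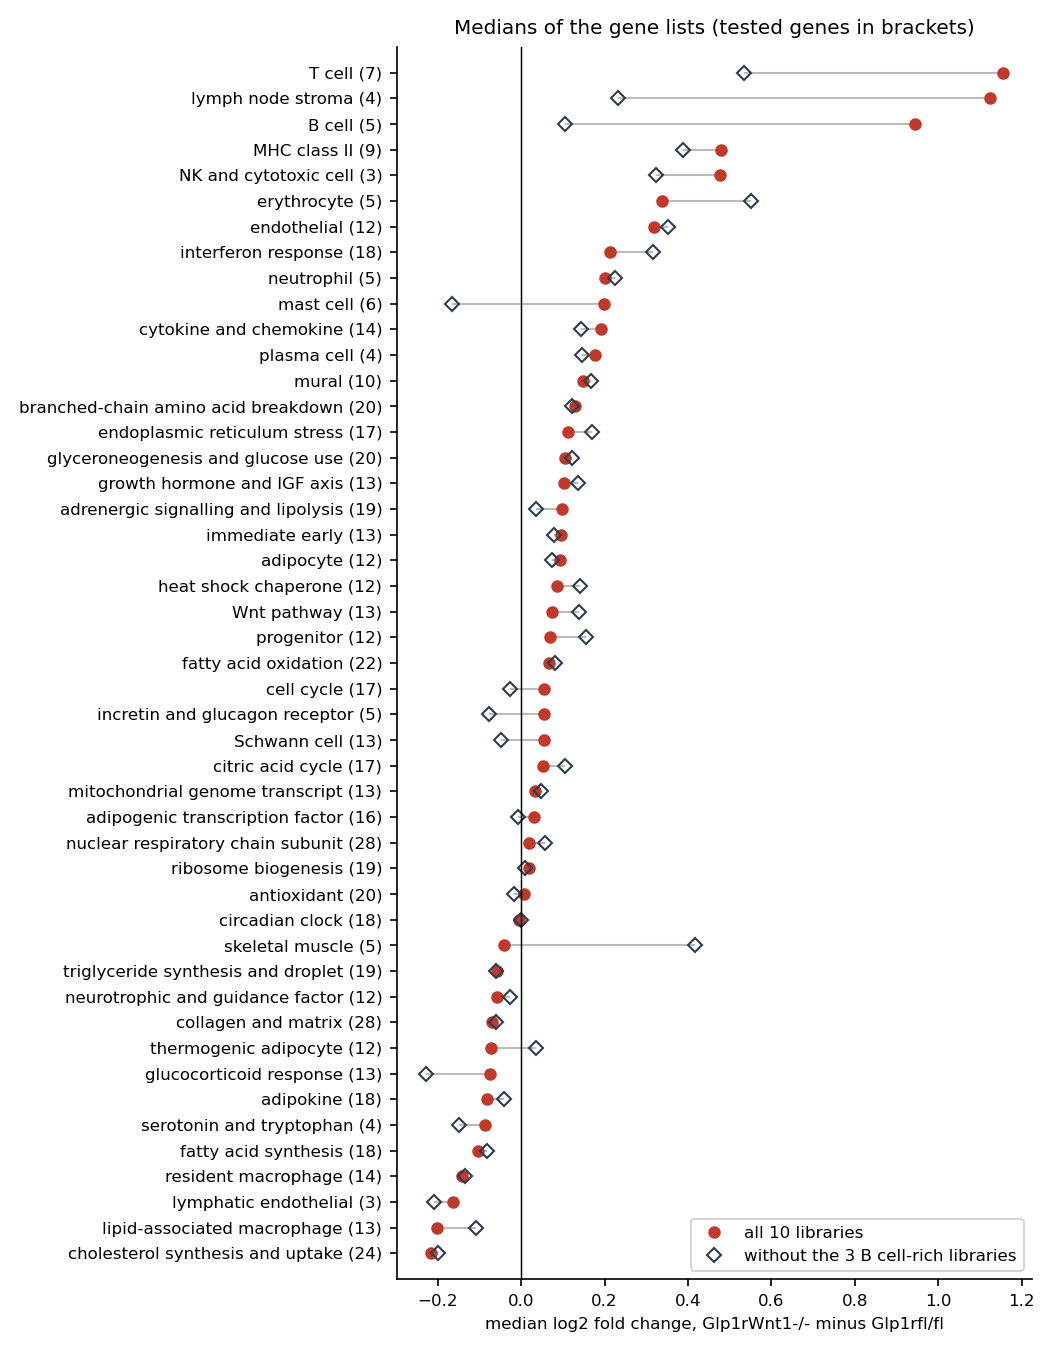
Median log2 fold change (Glp1rWnt1-/- minus Glp1rfl/fl) of each list with at least 3 tested genes, with the number of tested genes in brackets, from all 10 libraries (filled circles) and without the 3 B cell-rich libraries (open diamonds). The cholesterol median is the lowest with all libraries, at -0.22, and is -0.20 without the 3, while the T cell, B cell and lymph node stroma medians are 0.94 to 1.16 with all libraries and 0.10 to 0.54 without them.

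Other genes had their smallest p without the B cell-rich libraries. They were chosen after these values were seen, and with equal weights limma called none of them in all 10 libraries or in that subset. With array weights all of the 8 but Rbm3 were called, where 5.77% of all genes were. Those weights give the B cell-rich libraries little say, much as the choice of these genes did, so the calls are no separate check. Rbm3, an RNA-binding protein induced by cold, was at 234, 101, 179.6, 95.5 and 97.5 FPKM in the Glp1rWnt1-/- libraries against 142, 244, 144, 127 and 144 FPKM in the Glp1rfl/fl libraries. The 3 highest values were those of the B cell-rich libraries. Among the other libraries all 3 Glp1rWnt1-/- values were lower than all 4 Glp1rfl/fl values, with a log2 fold change of -0.50 (unadjusted p = 1.65e-05; adjusted p = 0.105), beside -0.24 with all 10 libraries. In the subset without the B cell-rich libraries the groups did not overlap for 20.1% of all genes. Luzp1, Ccdc152, Apc, a scaffold that marks beta-catenin for breakdown, and Tmem87b differed by -0.41, -0.54, -0.40 and -0.34 in that subset, and by -0.29, -0.36, -0.26 and -0.16 with all 10 libraries. Trmt1l and Mid1-ps1 differed by 0.43 and 1.32 in the subset and by 0.36 and 0.78 with all libraries. The histone gene H2ac19 differed by -2.46 there but by -1.26 with all 10 libraries (unadjusted p = 0.0998), and ranged over 3.61 to 27.2 FPKM in all Glp1rWnt1-/- libraries and 2.29 to 88.3 FPKM in all Glp1rfl/fl libraries.

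The same kind of comparison exists for GiprSyn-/- against Giprfl/fl fat, 5 libraries each of vehicle-treated mice that share no library with those above. The labels name this knockout of the GIP receptor gene after Syn and do not describe the driver. There 1670 of 13604 genes were called (12.3%). The difference between the knockout effects was tested over 12541 genes, and 6 were called (0.0478%), with 1359 (10.8%) at an unadjusted p under 0.05. These 6, named because they passed this test, were Adamts4, Adamts7, Postn, Sez6l2, Lvrn and Fgf2. Adamts4, an aggrecan-cleaving protease of the matrix, was at 1.36, 1.32, 1.81, 1.24 and 1.94 FPKM in Glp1rWnt1-/- fat against 0.969, 1.08, 0.865, 1.38 and 0.928 FPKM in Glp1rfl/fl fat. In the other line it was at 0.822, 0.905, 0.626, 0.559 and 0.453 FPKM in GiprSyn-/- fat against 2.25, 1.78, 2.01, 1.68 and 1.65 FPKM in Giprfl/fl fat. The Wnt1 knockout thus had the higher mean in its line and the Syn knockout the lower one in its own, and the difference of the log2 fold changes was 1.09 ± 0.17 (adjusted p = 0.00856).

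Postn, periostin, a matrix protein of stromal cells, had log2 fold changes of 0.17 ± 0.22 in Glp1rWnt1-/- fat and -1.496 ± 0.22 in GiprSyn-/- fat, a difference of 1.67 ± 0.32 (adjusted p = 0.0425). The protease Adamts7 differed by 1.05 ± 0.19 (adjusted p = 0.0382) and Sez6l2 by 0.91 ± 0.17 (adjusted p = 0.0382). Fgf2, a growth factor of vessels and progenitors, was at 3.82 ± 0.585 FPKM in Glp1rWnt1-/- and 4.24 ± 0.485 FPKM in Glp1rfl/fl fat, but at 10.8 ± 1.71 FPKM in GiprSyn-/- and 5.60 ± 0.794 FPKM in Giprfl/fl fat, a difference of -0.95 ± 0.18 (adjusted p = 0.0382). Lvrn, an aminopeptidase, differed by -0.91 ± 0.16 (adjusted p = 0.0285). In each of the 6 the log2 fold change was further from 0 in GiprSyn-/- fat. Without the B cell-rich libraries of both lines limma called 0 genes (smallest adjusted p 0.135; 1163 at an unadjusted p under 0.05), and with single libraries left out it called 1 to 55, the 55 without GiprSyn-/- replicate 3.

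For the other genes tested the difference between the knockouts did not pass, which does not show that they act alike. Of 38 genes named by p or list with an unadjusted p under 0.05 in Glp1rWnt1-/- fat and tested in both lines, 31 had the same sign in GiprSyn-/- fat. Over all 12541 genes the log2 fold changes of the knockouts correlated at 0.52 (Pearson), or 0.32 without the B cell-rich libraries of the Glp1r line. The share of all genes with the same sign was not counted. In 20 of the 38 the log2 fold change was further from 0 in Glp1rWnt1-/- fat. Those from Pck1 to Col12a1 below were further from 0 in GiprSyn-/- fat. Pck1 had a log2 fold change of 1.54 ± 0.27 there (adjusted p = 0.0042), Sctr of 1.11 ± 0.26 (0.0168), Gpx3 of 1.56 ± 0.22 (0.00141) and Adrb3 of 2.65 ± 0.46 (0.0039), all beside the smaller positive values given above. Tph2 had -3.40 ± 0.60 there (adjusted p = 0.00428), Angptl8 -2.28 ± 0.45 (0.0071), S100a8 -1.73 ± 0.27 (0.0026), Scd2 -1.48 ± 0.29 (0.00719) and Col12a1 -0.84 ± 0.11 (0.000897). Of the vascular genes with an unadjusted p under 0.05, both were of opposite sign, with Eng at -0.36 ± 0.19 (0.208) and Notch3 at -0.54 ± 0.20 (0.0852), and the median of the 12 endothelial markers was 0.32 in Glp1rWnt1-/- and -0.34 in GiprSyn-/- fat. The difference between the knockouts was not called for any of these genes, at adjusted p values of 0.169 to 0.781.

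**Figure D5:**
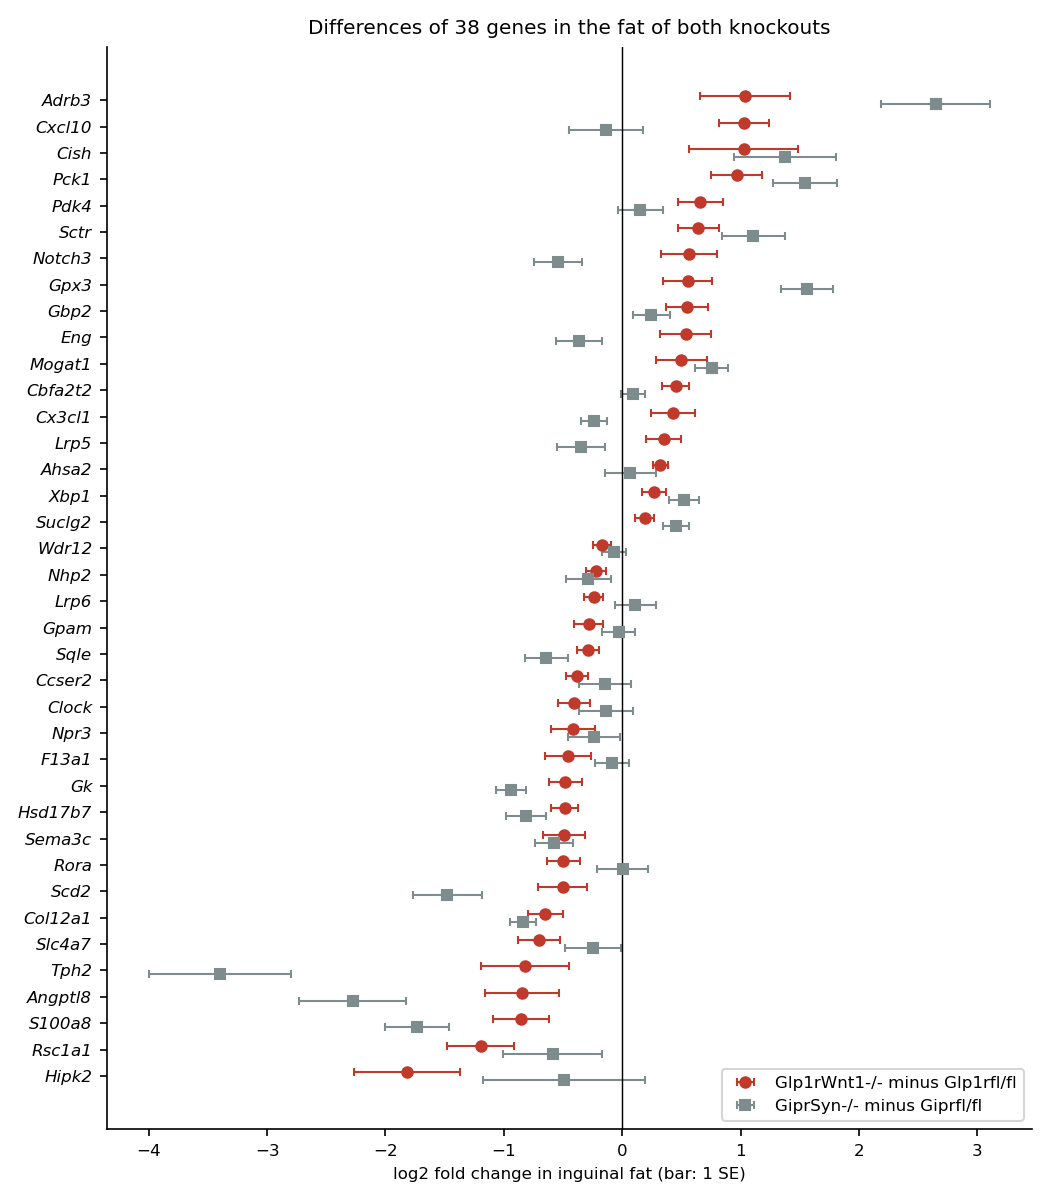
Log2 fold changes in inguinal fat of the 38 genes named by p or list that had an unadjusted p under 0.05 in Glp1rWnt1-/- fat and were tested in both lines, with bars of 1 SE. Red circles are Glp1rWnt1-/- minus Glp1rfl/fl and grey squares GiprSyn-/- minus Giprfl/fl, and 31 of the 38 have the same sign in both. In 20 of the 38 the red circle is further from 0. Over all 12541 genes the Pearson correlation was 0.52, and the share with the same sign was not counted.

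Genes called in the other line were also counted by sign in Glp1rWnt1-/- fat. Of 899 genes higher in GiprSyn-/- fat 780 were tested in the Glp1r line, and 693 of these (88.8%) had a positive log2 fold change in Glp1rWnt1-/- fat, against 61.6% of all genes. Their median was 0.17, against 0.04 over all genes. Of 771 genes lower in GiprSyn-/- fat 750 were tested, and 606 (80.8%) were negative, against 38.4% of all genes, with a median of -0.14. Without the B cell-rich libraries of the Glp1r line these shares were 84.2% and 77.2%. Genes called for the conjugate in Giprfl/fl fat (7.02% of those tested) gave 466 of 530 positive (87.9%, median 0.16) and 309 of 359 negative (86.1%, median -0.18). The conjugate and GiprSyn-/- comparisons use the same Giprfl/fl vehicle libraries, so these shares are not separate evidence. Genes are not independent replicates, the Gipr line too has B cell-rich and muscle-rich libraries, and the part of tissue composition in these shares was not tested beyond leaving libraries out.

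Conjugate-treated Glp1rfl/fl fat shares its vehicle controls with the knockout comparison, so only levels are set side by side. Pck1 was at 479.5 ± 104 FPKM in Glp1rWnt1-/- fat, 628 ± 158 FPKM in conjugate-treated and 246 ± 58.3 FPKM in vehicle-treated Glp1rfl/fl fat. Gpx3 was at 118 ± 39.02 FPKM in Glp1rWnt1-/- fat, 261 ± 53.95 FPKM in conjugate-treated and 77.6 ± 13.98 FPKM in vehicle-treated Glp1rfl/fl fat. Tph2 was at 24.5 ± 11.2 FPKM in Glp1rWnt1-/- fat, 10.9 ± 4.49 FPKM in conjugate-treated and 43.2 ± 17.2 FPKM in vehicle-treated Glp1rfl/fl fat. In these 3 genes the knockout mean lay between the conjugate and vehicle means, which was not so for Adrb3, Cxcl10 and Hipk2. In the order knockout, conjugate and vehicle, Adrb3 was at 83.6 ± 44.7, 59.7 ± 13.9 and 37.1 ± 13.5 FPKM. In that order Cxcl10 was at 5.38 ± 2.25, 1.84 ± 0.350 and 2.02 ± 0.595 FPKM. Hipk2 was at 7.77 ± 4.43, 13.7 ± 11.9 and 27.2 ± 5.31 FPKM.

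Liver of the same genotypes had 0 of 10858 genes called (0%) and 1048 (9.65%) at an unadjusted p under 0.05, with a smallest adjusted p of 0.0812. Without Glp1rWnt1-/- liver replicate 5 the number called was 81. Whether liver and fat came from the same mice is not stated, and no test was made between the tissues. Over 9834 genes tested in both tissues the log2 fold changes of fat and liver correlated at 0.15 (Pearson). The 24 cholesterol genes had a median log2 fold change of -0.53 in Glp1rWnt1-/- liver, beside -0.22 in fat. No median over all liver genes was taken. Hsd17b7 was at 10.2 ± 2.83 FPKM in Glp1rWnt1-/- and 13.9 ± 1.99 FPKM in Glp1rfl/fl liver (log2 fold change -0.44 ± 0.17; unadjusted p = 0.0219). Ahsa2 was at 15.4 ± 1.24 FPKM in Glp1rWnt1-/- and 12.9 ± 0.910 FPKM in Glp1rfl/fl liver (0.23 ± 0.07; unadjusted p = 0.00552), Xbp1 at 92.9 ± 20.2 FPKM in Glp1rWnt1-/- and 69.7 ± 4.58 FPKM in Glp1rfl/fl liver (0.39 ± 0.10; 0.00181) and Cbfa2t2 at 2.57 ± 0.299 FPKM in Glp1rWnt1-/- and 1.78 ± 0.223 FPKM in Glp1rfl/fl liver (0.36 ± 0.07; 0.000117), each of the same sign as in fat. Pck1 was at 720.2 ± 203 FPKM in Glp1rWnt1-/- and 713 ± 167 FPKM in Glp1rfl/fl liver, a log2 fold change of -0.01 ± 0.20, and Pdk4 at 1.52 ± 0.557 FPKM in Glp1rWnt1-/- and 2.98 ± 0.904 FPKM in Glp1rfl/fl liver, of the opposite sign to fat (-0.66 ± 0.17; unadjusted p = 0.00177). Tph2, Lep and Adipoq were at or near 0 in liver.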

How the data were processed

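RNA of inguinal fat was sequenced, and the deposited values are FPKM computed by the authors with RSEM, per the submitters' processing notes. The version of RSEM, the aligner and the genome build were not given in the sources used here. FPKM are not counts, so limma 3.58.1 (R 4.3.3) was run on log2(FPKM + 1). The model held the 15 libraries of the Glp1r fat table in 3 groups, with a mean-variance trend and Benjamini-Hochberg adjustment, over genes with at least 1 FPKM in at least 5 libraries, and a gene was called at an adjusted p under 0.05. Fold changes on this scale understate those of low genes. The script was tested on simulated data.

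B cell-rich means a B cell score over 5, and muscle-rich a muscle score over 2. The labels call the libraries biological replicates and do not say that the animals were separate, so p-values measure the spread between libraries. The members and lists were chosen with earlier results of these data known. Named genes are the 10 of smallest p with a higher group mean of at least 1 FPKM, unnamed gene models left out. To these were added the 2 members of smallest p in each list and 10 genes set by name. The 10 of smallest p without the B cell-rich libraries, taken by the same rule, were added after these values were seen. Results for 2 of these genes are not reported here. The difference from GiprSyn-/- fat was tested in 1 limma model over 30 fat libraries, whose tables the authors deposited separately, so levels are compared only within a line. Depth was estimated from the FPKM steps of low genes. Alternatives changed the pseudocount, the filter, the scaling, the weights, the block and the libraries used, and their effect is given in the closing section.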

Additional observations from a re-analysis of the deposited data

Results flagged for a closer look

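Of 342 groups of 5 values examined, 63 held a library far from the other 4 of its group, where 1 in 20 groups, about 17.1, would be flagged by chance. Glp1rfl/fl replicate 2, the library with the highest B cell score, accounted for most of them. Its mean log2(FPKM + 1) stood above the other 4 Glp1rfl/fl libraries for the lists lymphatic endothelial (2.47), nerve fibre (0.656), B cell (6.53), plasma cell (3.38), T cell (5.21), NK and cytotoxic cell (2.52), lymph node stroma (5.05), MHC class II (7.75), neutrophil (2.17), cell cycle (3.17), cytokine and chemokine (2.97), ribosome biogenesis (4.24), serotonin and tryptophan (2.17) and Wnt pathway (2.30). It stood below them for the lists adipocyte (9.08), fatty acid synthesis (5.65), triglyceride synthesis and droplet (6.56), adrenergic signalling and lipolysis (5.22), thermogenic adipocyte (1.89), glyceroneogenesis and glucose use (5.04), fatty acid oxidation (5.78), adipokine (6.07) and antioxidant (5.59).

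Among the named genes the FPKM of Glp1rfl/fl replicate 2 stood above the other 4 libraries of its group for Cd3e (39.8), Cd3g (65.6), Cd79a (262), Cd79b (202), Ciita (32.8), Cxcl12 (171), Cxcl13 (60.6), Glp1r (0.031), H2-Eb1 (592), Jchain (154), Klrk1 (7.87), Ltb (141), Nkg7 (32.2), Pdia4 (51.3), Rbm3 (244), Socs2 (11.6), Stmn2 (9.29) and Tyms (2.88). It stood below them for Adipoq (1011), Bdnf (0.407), Lipe (329.6), Npr3 (159), Ppara (0.863), Sod2 (22.3) and Tmem87b (14.3).

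Glp1rWnt1-/- replicate 1 stood apart from its group in glucocorticoid response list at 5.83 (above the others), neurotrophic and guidance factor list at 1.87 (below the others), Mt2 at 93.3 FPKM (above the others) and Rsc1a1 at 0.937 FPKM (above the others). Glp1rWnt1-/- replicate 2 stood apart from its group in skeletal muscle list at 4.68 (above the others) and Acta1 at 118 FPKM (above the others). Glp1rWnt1-/- replicate 3 stood apart from its group in Glp1r at 0.0058 FPKM (above the others), Krt10 at 1.102 FPKM (below the others) and mt-Atp6 at 1547 FPKM (below the others). Glp1rWnt1-/- replicate 5 stood apart from its group in collagen and matrix list at 6.25 (above the others) and Gk at 5.41 FPKM (above the others). Glp1rfl/fl replicate 3 stood apart from its group in Eng at 24.3 FPKM (below the others), Kit at 1.92 FPKM (below the others) and Notch3 at 5.33 FPKM (below the others). Glp1rfl/fl replicate 4 stood apart from its group in skeletal muscle list at 5.13 (above the others).

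The knockout effects differed between Glp1rWnt1-/- and GiprSyn-/- fat by the test of the difference for 6 genes, with differences of the log2 fold changes of 1.09 for Adamts4, -0.91 for Lvrn, -0.95 for Fgf2, 1.67 for Postn, 0.91 for Sez6l2 and 1.05 for Adamts7.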

How the results depend on the processing

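Under all alternatives but 1 the number of genes called between Glp1rWnt1-/- and Glp1rfl/fl fat stayed at 0, leaving out each library in turn included, and with array weights it was 732. The number of genes with an unadjusted p under 0.05 ranged, with single libraries left out, from 294 without Glp1rWnt1-/- replicate 4 to 2928 without Glp1rfl/fl replicate 2, with 345 and 376 without Glp1rfl/fl replicates 3 and 5. It was 366 without the muscle-rich libraries, 1244 with no filter, 1803 with the B cell score as a term and 3240 with array weights. The number of genes whose knockout effect differed between the Wnt1 and the Syn knockout, 6 as reported, was 0 with a filter of 5 FPKM, 0 without the B cell-rich libraries, 10 with the B cell score as a term and 1 to 55 with single libraries left out. In liver 0 genes were called with each library left out except Glp1rWnt1-/- replicate 5, where 81 were (range 0 to 81). Leaving out the muscle-rich libraries, or those rich in B cells or muscle, and the muscle score as a term were chosen after seeing the data. The cause of these shifts was not tested.

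The replicate block, which pairs libraries by number, gave 0 genes in fat, 15 for the difference between the knockouts and 0 in liver. Deviations of same-numbered libraries correlated between -0.84 and 0.57 in fat, so the numbers were not taken as pairs.

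Of 117 named genes, 112 kept their sign in every setting that tested them, which was 25 settings for 79 genes and 24 for the 38 that the filter of 5 FPKM removed. Adipoq turned to -0.0016 with median-of-ratios scaling, -0.0084 without the muscle-rich and -0.024 without the B cell- or muscle-rich libraries, and ranged from -0.21 to 0.16 with single libraries left out. Acta1 was -0.59 with array weights and -0.52 to 0.87 with single libraries left out. Krt10 was 0.036 with array weights and 0.026 without the B cell-rich libraries. Pvalb was 0.0058 with the B cell score as a term, 0.082 without the B cell-rich libraries and -0.97 to 0.39 with single libraries left out, and Trem2 was 0.21 without the B cell- or muscle-rich libraries. The number of libraries and the spread within a group limit the precision, as the intervals show.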
